A study of Homo sapiens with 12 samples.

Results

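The ATP-binding cassette (ABC) transporters of subfamilies A, B, C, D and G were followed across 12 expression arrays as 34 listed genes, in groups for drug and conjugate efflux, lipid and sterol transport, peroxisomal import, mitochondrial and lysosomal transport, and a mixed remainder. Of the 34 genes, 33 had at least 1 probe set that carries their symbol alone, out of 19775 genes represented in the same way. ABCC6 was not analysed here. Where a gene had several such probe sets, the one that read highest on average over the 12 arrays stood for it.

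The samples were all made from NCI-H1299, a long-established cell line of human non-small cell lung cancer, and their RNA was hybridised to Affymetrix HG-U133 Plus 2.0 arrays, 1 array per sample and 3 samples in each of 4 groups. Spheroid xenografts were tumours grown from spheroid cells, for which 7 to 10 days in stem-cell medium are recorded too. Parental xenografts were tumours grown from parental cells. Spheroid cultures had been moved from monolayers into stem-cell medium for 7 to 10 days and then plated in flasks that prevent attachment, while parental cultures were kept in medium with serum. All 4 groups descend from the same line, and the labels give no added gene and no drug treatment. The sample titles number the 3 samples of each group as biological replicates. The sources used here do not give the host animals, the graft site or if the tumours of a group grew in separate animals. The p-values therefore cover only the spread among these samples, which may be technical in part. The comparisons ask how the stem-cell culture differs from the parental one, whether the tumours differ likewise, and how each kind of cell differs between tumour and dish.

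ABC transporters are membrane proteins that bind and split ATP at a pair of nucleotide-binding domains and use that energy to move substrates across a membrane. Several of the B, C and G subfamilies export drugs and conjugated toxins and are known from multidrug-resistant tumours, where ABCB1 (P-glycoprotein) and ABCG2 (breast cancer resistance protein) are also used to mark dye-excluding cells. Most of the A subfamily move sterols and phospholipids, and the D subfamily mainly imports fatty acyl chains into peroxisomes.

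Of the 33 transporters, 3 passed the test in 1 or more comparisons. ABCB1 was lower and ABCC5, an exporter of cyclic nucleotides and nucleotide analogues, was higher both in spheroid than in parental culture and in parental xenografts than in parental culture. ABCB6, a porphyrin transporter, was higher in parental xenografts than in parental culture. The differences from parental culture were -1.38 (SE 0.26) in spheroid culture and -1.14 (SE 0.26) in parental xenografts for ABCB1, 0.66 (SE 0.13) and 0.82 (SE 0.13) for ABCC5, and 0.88 (SE 0.19) in parental xenografts for ABCB6, in log2 units with n = 3 in each group. No other member was past the threshold, which was an adjusted p (Benjamini-Hochberg, over the 19775 genes represented) below 0.05 in limma's moderated test, and no member passed between the xenografts or between spheroid xenografts and spheroid culture. Both comparisons with calls share the 3 parental cultures, so their results for ABCB1 and ABCC5 are not independent of each other.

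The promoter windows of these 3 genes are shown because they are the only members that passed the threshold in any comparison. Each is 300 bases long, 250 before to 50 after the start of the gene, read along the gene's strand, from RefSeq on GRCh38.p14. Capitals mark matches on either strand to 4 short sequences that transcription factors are known to bind. The GC box was searched as GGGCGG, and the CCAAT box by the letters of its name. The TATA box was searched as TATAAA. The E box was searched as CACGTG, which reads the same on both strands. The windows lie at chr7:87713246-87713545 for ABCB1, chr3:184017835-184018134 for ABCC5 and chr2:219218909-219219208 for ABCB6, all on the minus strand.
ABCB1: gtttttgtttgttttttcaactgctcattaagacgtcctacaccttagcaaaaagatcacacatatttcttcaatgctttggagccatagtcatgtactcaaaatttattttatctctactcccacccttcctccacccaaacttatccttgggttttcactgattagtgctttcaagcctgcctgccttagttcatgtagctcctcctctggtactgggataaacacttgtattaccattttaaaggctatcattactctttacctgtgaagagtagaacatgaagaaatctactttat
ABCC5: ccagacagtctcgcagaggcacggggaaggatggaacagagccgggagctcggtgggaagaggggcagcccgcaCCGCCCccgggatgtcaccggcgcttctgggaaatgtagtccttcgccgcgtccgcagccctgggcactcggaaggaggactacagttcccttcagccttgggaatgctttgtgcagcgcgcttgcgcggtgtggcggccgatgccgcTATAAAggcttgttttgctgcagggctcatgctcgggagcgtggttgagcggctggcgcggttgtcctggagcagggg
ABCB6: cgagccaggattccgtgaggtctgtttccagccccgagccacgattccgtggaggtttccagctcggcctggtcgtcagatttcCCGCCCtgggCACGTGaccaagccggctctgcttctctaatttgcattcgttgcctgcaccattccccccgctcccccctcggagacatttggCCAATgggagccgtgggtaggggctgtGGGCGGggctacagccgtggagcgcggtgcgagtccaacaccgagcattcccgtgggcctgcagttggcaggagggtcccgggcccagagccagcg

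The ABCB1 window held none of the 4 sequences, 37.7% G and C, and 1 CG dinucleotide. The ABCC5 window held 65.7% G and C, 26 CG dinucleotides, a GC box at position -176 and a TATA box at -28, counted from the start. The ABCB6 window also held 65.7% G and C, with 23 CG dinucleotides, GC boxes at -166 and -46, a CCAAT box at -73 and an E box at -156. The median was 58.3% over all promoters in the table and 62% over the 27 members it holds. A GC box was present in 15 of those 27 windows (55.6%) against 44.6% of all 27305, a CCAAT box in 5 (18.5%) against 35.7%, a TATA box in 3 (11.1%) against 12%, and an E box in 2 (7.41%) against 7.43%. These are matches of letters and say nothing of whether a factor binds there. Only 1 start per gene was searched, so sequences at any other start of a gene, ABCB1 included, were not examined.

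Array medians ran between 5.853 and 6.034 log2 units. Parental culture replicate 1 and replicate 2 stood apart: replicate 1 had the narrowest spread of values (interquartile range 2.817) and replicate 2 the widest (3.437), and the 18S ribosomal control probe set read 6.964 and 10.5 on them, against 12.21 to 13.34 on the other 10 arrays. On replicate 1 the 3′ probe set of GAPDH also read 0.493 above the 5′ one, against 0.019 to 0.129 on the other arrays. The median SD of a member was 0.125 in spheroid xenografts, 0.198 in parental xenografts, 0.158 in spheroid culture and 0.294 in parental culture. Parental culture replicate 2 gave the lowest of the 12 values for 10 of 33 members and the highest for 7, against 20.5% and 19.6% of all genes. As bulk samples, fewer cells of a type and less RNA per cell cannot be told apart.

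In spheroid against parental culture, 1 of 33 members rose and 1 fell, against 0.885% and 1.58% of all genes (2.46% in either direction). In parental xenografts against parental culture, 2 rose and 1 fell, against 2% and 1.48% of all genes (3.47% in either direction). No member passed in spheroid against parental xenografts, where 0.233% of all genes did, nor in spheroid xenografts against spheroid culture, where 0.0202% did, although 3 and 2 members had an unadjusted limma p under 0.05 (9.09% and 6.06%, against 7.34% and 7.39% of all genes). The test of whether the spheroid to parental difference itself differed between xenograft and culture passed for 0 members and for 0.137% of all genes, with 5 members at an unadjusted p under 0.05 (15.2%, against 7.41% of all genes). Down-weighting of variable arrays in limma called 1 member between the xenografts, 1 in spheroid xenografts against culture and 3 in the test of the difference, and it called 6.1%, 4.63% and 4.53% of all genes there.

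Groups separated completely, with no overlap among their 3 values, for 5 members in spheroid against parental culture (15.2%, against 13.8% of all genes), for 4 between the xenografts (12.1%, against 16.5%), for 6 in parental xenografts against culture (18.2%, against 13.6%) and for 6 in spheroid xenografts against culture (18.2%, against 18.7%). These shares lay near those of all genes. The median difference of the 33 members was 0.10 in spheroid against parental culture, where that of all genes was 0.07. It was -0.017 between the xenografts (0.019 for all genes), 0.0019 in parental xenografts against culture (-0.0091) and -0.028 in spheroid xenografts against culture (-0.047).

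**Figure D1:**
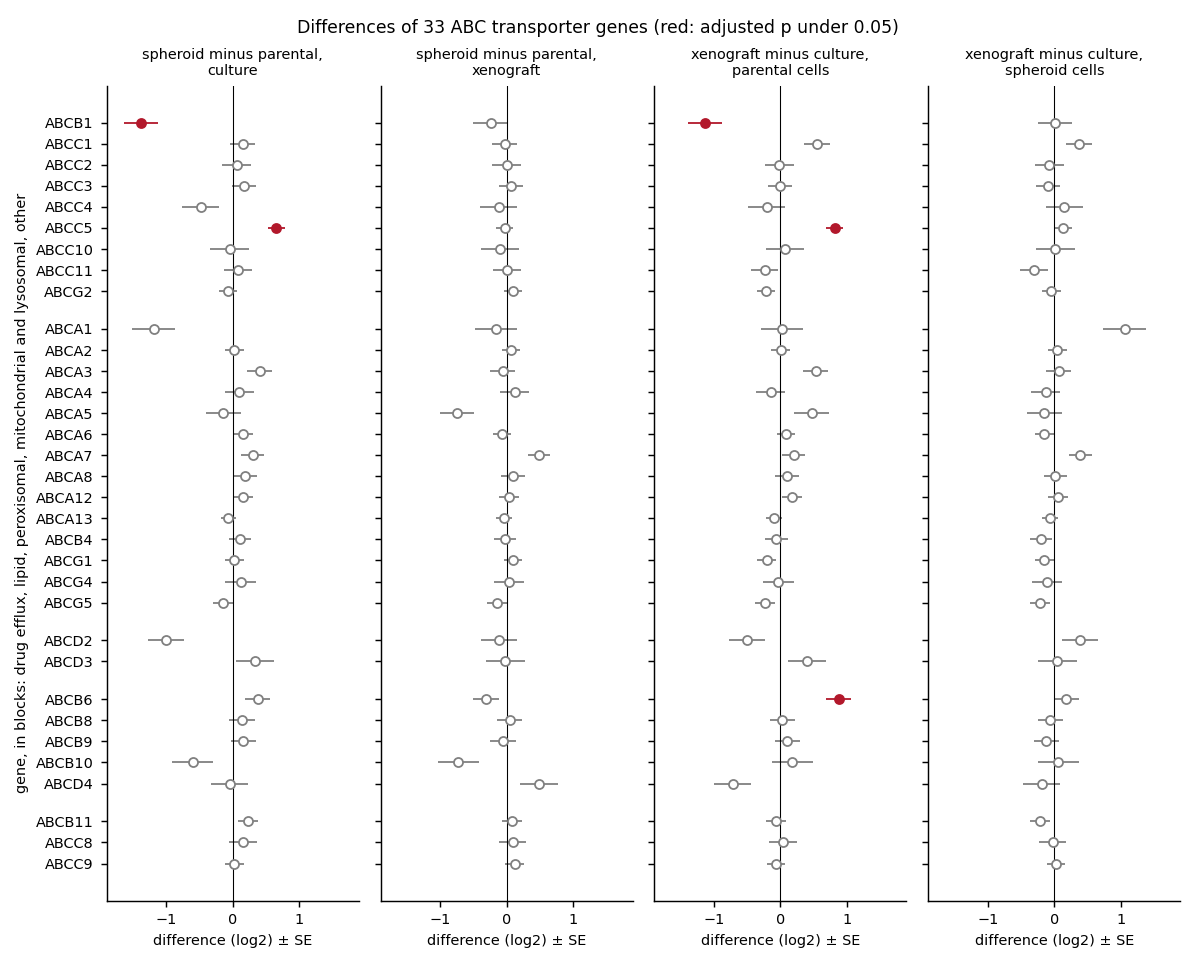
Differences of the 33 members in the 4 comparisons of 2 groups, on the log2 scale, with 1 gene per row in blocks by role and bars of ± SE of the fit. Filled red points passed an adjusted p under 0.05: ABCB1 and ABCC5 in the first panel, ABCB1, ABCC5 and ABCB6 in the third.

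Among the 9 drug and conjugate exporters, 1 rose and 1 fell in spheroid against parental culture, and the same held in parental xenografts against parental culture. That was 22.2% of the exporters each time, against 2.46% and 3.47% of all genes. The exporter that fell was ABCB1, which pumps a wide range of hydrophobic drugs out of the cell. Its values (log2 units, replicates 1 to 3) were 4.27, 4.20 and 4.05 in spheroid xenografts, 4.26, 4.36 and 4.61 in parental xenografts, 4.23, 4.02 and 4.24 in spheroid culture, and 5.05, 6.30 and 5.29 in parental culture. All 3 parental cultures lay above the other 9 arrays, and replicate 2 lay highest. The group means were 4.17 ± 0.11, 4.41 ± 0.18, 4.16 ± 0.12 and 5.55 ± 0.66 in the same order (SD, n = 3 each). ABCB1 fell by 1.38 log2 units in spheroid culture relative to parental culture (SE 0.26, adjusted p = 0.0182), a 2.61-fold difference. In parental xenografts it fell by 1.14 relative to parental culture (SE 0.26, adjusted p = 0.0364), a 2.2-fold difference. Between the xenografts the difference was -0.24 (SE 0.26, adjusted p = 1), and between spheroid xenografts and spheroid culture it was 0.0068 (SE 0.26, adjusted p = 0.997). The test of the difference between the spheroid effects in xenograft and in culture gave 1.14 (SE 0.37, adjusted p = 0.394), so the fall in culture was not shown to differ from the value in xenografts.

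ABCB1 read dimly: its mean over the 12 arrays was below 4.733, the lower quartile of all values, and only parental culture had a group mean above that level. The call in culture did not rest on the highest array, since without parental culture replicate 2 the difference was -1.0 (adjusted p = 0.00841). It was lost without spheroid culture replicate 2 (adjusted p = 0.104) or replicate 3 (adjusted p = 0.0635), while the difference stayed between -1.63 and -1.0 whichever array was left out. The call in parental xenografts held in 3 of 12 such fits, those without spheroid culture replicate 1 or without parental culture replicate 1 or 2, with differences between -1.39 and -0.76. The second probe set of ABCB1 moved the same way by less, with -0.39 (SE 0.17) in spheroid culture and -0.41 (SE 0.17) in parental xenografts, both against parental culture. ABCB4, the phosphatidylcholine exporter of bile, lies next to ABCB1 on chromosome 7 with 0 protein-coding genes between them, and differed by 0.11 (SE 0.17, adjusted p = 0.843) between spheroid and parental culture.

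ABCC5 ran the opposite way to ABCB1. Its values were 9.51, 9.74 and 9.83 in spheroid xenografts, 9.80, 9.68 and 9.69 in parental xenografts, 9.56, 9.64 and 9.48 in spheroid culture, and 8.90, 8.86 and 8.95 in parental culture. The 3 parental cultures lay together below the other 9 arrays, with no overlap. Means were 9.69 ± 0.17, 9.72 ± 0.064, 9.56 ± 0.083 and 8.90 ± 0.045 in the same order (SD, n = 3 each). ABCC5 rose by 0.66 in spheroid culture relative to parental culture (SE 0.13, 1.58-fold, adjusted p = 0.0218) and by 0.82 in parental xenografts relative to parental culture (SE 0.13, 1.77-fold, adjusted p = 0.00589). It differed by -0.031 between the xenografts and by 0.13 between spheroid xenografts and spheroid culture, with adjusted p = 1 and adjusted p = 0.901. The test of the difference between the spheroid effects gave -0.69 (SE 0.18, adjusted p = 0.232).

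The rise of ABCC5 in parental xenografts was called in all 12 fits that left out 1 array, with differences between 0.78 and 0.84. Its rise in spheroid culture was lost without parental culture replicate 3 (adjusted p = 0.0521), spheroid culture replicate 2 (adjusted p = 0.12) or spheroid culture replicate 3 (adjusted p = 0.0639). Both calls rest on 1 of 3 probe sets. The other two, with means of 7.48 and 5.39 against 9.47 for the one used, gave -0.017 (SE 0.25) and 0.17 (SE 0.26) in spheroid against parental culture, and -0.24 (SE 0.25) and 0.13 (SE 0.26) in parental xenografts against parental culture. Which transcripts of ABCC5 each probe set reads was not examined.

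**Figure D2:**
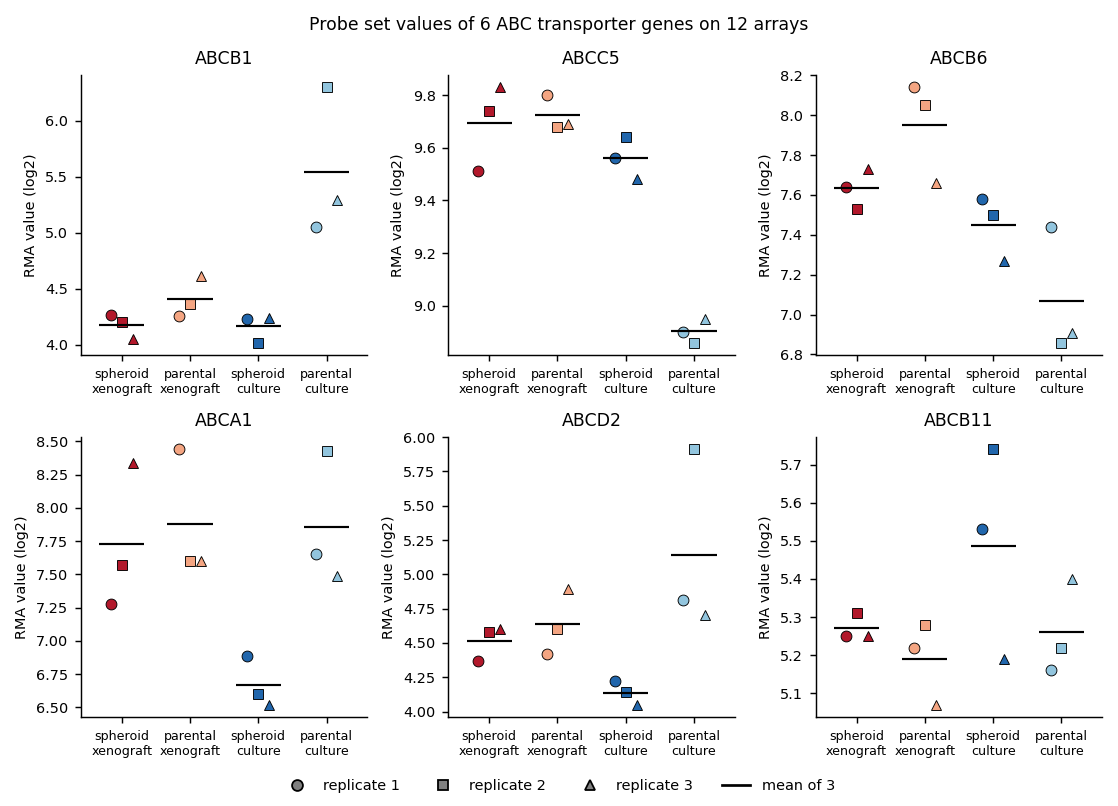
Log2 values of 6 transporters on the 12 arrays, with a panel per gene, a column per group, 1 symbol per replicate and a line at the mean of 3. The 3 parental cultures stand above the other 9 arrays for ABCB1 and below them for ABCC5, and the spheroid cultures lie lowest for ABCA1.

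The other 7 drug and conjugate exporters passed in no comparison. ABCG2 lay between 4.4 and 5.03 on the 12 arrays, with group means of 4.67 in spheroid xenografts, 4.57 in parental xenografts, 4.71 in spheroid culture and 4.78 in parental culture, and it differed by -0.069 between spheroid and parental culture (SE 0.14, adjusted p = 0.896). Its mean over the 12 arrays, like that of ABCB1, was below the lower quartile of all values. The spheroid xenografts lay above the parental ones without overlap, and below the spheroid cultures without overlap, with differences of 0.10 and -0.044 log2 units. ABCC1, which exports glutathione conjugates and leukotrienes, was higher in both kinds of xenograft without overlap. It read 9.25, 9.01 and 9.17 in parental xenografts, against 8.89, 8.78 and 8.12 in parental culture, a difference of 0.55 (SE 0.19, adjusted p = 0.161). In spheroid xenografts it read 9.16, 8.98 and 9.21, against 8.73, 8.69 and 8.81 in spheroid culture, a difference of 0.37 (SE 0.19, adjusted p = 0.732). ABCC4, which exports cyclic nucleotides and prostaglandins, differed by -0.48 between spheroid and parental culture (SE 0.28, adjusted p = 0.511), with parental culture replicate 2 at 9.94 above every other array. The ABCC4 difference was -0.13 without that replicate and -0.82 without parental culture replicate 1. ABCC2 and ABCC3, which export bilirubin and bile salt conjugates, ABCC10, which exports taxanes, and ABCC11, known for its role in apocrine secretion, had differences between -0.31 and 0.17 in the 4 comparisons. The median of the 9 exporters was 0.063 in spheroid against parental culture, -0.028 between the xenografts, -0.017 in parental xenografts against culture and 0.0068 in spheroid xenografts against culture.

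None of the 14 lipid and sterol transporters passed in any comparison. An unadjusted limma p under 0.05 was reached by 1 of them in spheroid against parental culture and by 2 between the xenografts. It was reached by 1 in parental xenografts against culture and by 2 in spheroid xenografts against culture. The shares of all genes were 14%, 7.34%, 14.3% and 7.39% in that order. The lipid transporter with the largest difference was ABCA1, which loads cholesterol and phospholipid onto apolipoprotein A-I. Its values were 7.28, 7.57 and 8.34 in spheroid xenografts, 8.44, 7.60 and 7.60 in parental xenografts, 6.89, 6.60 and 6.52 in spheroid culture, and 7.65, 8.43 and 7.49 in parental culture. The 3 spheroid cultures were the lowest of the 12 arrays, and the other 3 groups overlapped. Means were 7.73 ± 0.55, 7.88 ± 0.49, 6.67 ± 0.19 and 7.86 ± 0.50 in the same order (SD, n = 3 each). ABCA1 differed by -1.19 between spheroid and parental culture (SE 0.32, 2.28-fold, adjusted p = 0.0825) and by 1.06 between spheroid xenografts and spheroid culture (SE 0.32, 2.08-fold, adjusted p = 0.361). Between the xenografts it differed by -0.16 (SE 0.32, adjusted p = 1), and in parental xenografts against culture by 0.027 (SE 0.32, adjusted p = 0.997).

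ABCA1 thus stayed outside the threshold in both comparisons that involve spheroid culture. A second probe set of the gene, with a mean of 6.99, moved further in the same directions, by -1.82 in spheroid against parental culture (SE 0.44) and by 1.48 in spheroid xenografts against spheroid culture (SE 0.44). The 2 dimmest of its 4 probe sets, with means of 4.54 and 4.58, differed by 0.19 and -0.0033 between the cultures. Of 25 alternative fits, 4 called ABCA1 in spheroid against parental culture, and none of those that left out 1 array did.

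The remaining lipid transporters moved less. ABCA3, which packs surfactant lipid into the lamellar bodies of alveolar cells, read 7.82, 8.17 and 8.44 in parental xenografts, against 7.74, 7.41 and 7.67 in parental culture, a difference of 0.53 without overlap (SE 0.19, adjusted p = 0.188). ABCA5, a transporter of late endosomes and lysosomes, read 4.62, 4.64 and 4.73 in spheroid xenografts, against 5.92, 5.51 and 4.81 in parental xenografts, a difference of -0.75 (SE 0.26, adjusted p = 0.383). The parental xenografts did not overlap the spheroid ones but ranged over more than 1 log2 unit among themselves. ABCA7, a phospholipid transporter known for a role in phagocytosis, read 6.87, 6.97 and 7.22 in spheroid xenografts, against 6.29, 6.58 and 6.72 in parental xenografts, a difference of 0.49 (SE 0.17, adjusted p = 0.421). The spheroid xenografts also held the highest ABCA7 values of the 12 arrays, above spheroid culture by 0.39 (SE 0.17, adjusted p = 0.65).

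The other 10 were ABCA2 of endosomes and lysosomes, ABCA4, which clears retinoids in photoreceptors, ABCA12, which carries glucosylceramide in keratinocytes, ABCA13, ABCA6 and ABCA8, ABCB4, the cholesterol exporters ABCG1 and ABCG4, and ABCG5, a partner in sterol excretion. Their differences lay between -0.23 and 0.19 in the 4 comparisons. ABCA6 in spheroid against parental culture and ABCG5 in spheroid xenografts against spheroid culture did not overlap between groups, with differences of 0.16 (adjusted p = 0.701) and -0.22 (adjusted p = 0.844). ABCA5, ABCA6 and ABCA8 lie in 1 cluster on chromosome 17, and in spheroid against parental culture they differed by -0.14, 0.16 and 0.19. The median of the 14 was 0.11 in spheroid against parental culture, 0.008 between the xenografts, 0.014 in parental xenografts against culture and -0.091 in spheroid xenografts against culture.

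Neither of the 2 peroxisomal members passed in any comparison. ABCD2, which imports very long-chain and polyunsaturated fatty acyl chains, read 4.37, 4.58 and 4.6 in spheroid xenografts, 4.42, 4.6 and 4.89 in parental xenografts, 4.22, 4.14 and 4.05 in spheroid culture, and 4.81, 5.91 and 4.70 in parental culture. The spheroid cultures were the lowest of the 12 arrays, and parental culture replicate 2 stood above the rest. Means were 4.51 ± 0.13, 4.64 ± 0.24, 4.13 ± 0.085 and 5.14 ± 0.67 in the same order (SD, n = 3 each). ABCD2 differed by -1.01 between spheroid and parental culture (SE 0.27, 2.01-fold, adjusted p = 0.0749), by -0.12 between the xenografts, by -0.51 in parental xenografts against culture and by 0.38 in spheroid xenografts against culture, where the groups did not overlap. It read below the lower quartile of all values on average, so the fold is that of a dim probe set. Leaving out 1 array moved the ABCD2 difference in culture between -1.23 and -0.62, with adjusted p = 0.0436 to 0.237. It passed in 1 of those 12 fits, without parental culture replicate 1, and was smallest, at -0.62 (adjusted p = 0.0569), without parental culture replicate 2.

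ABCD3, an importer of branched-chain and bile acid precursors and one of the most abundant peroxisomal membrane proteins, read 9.99, 10.17 and 10.37 in spheroid xenografts, 10.29, 9.95 and 10.34 in parental xenografts, 9.58, 10.36 and 10.46 in spheroid culture, and 9.21, 10.35 and 9.82 in parental culture. All 4 groups overlapped. Its differences were 0.34 between the cultures, -0.017 between the xenografts, 0.40 in parental xenografts against culture and 0.044 in spheroid xenografts against culture, each with an SE of 0.29. The list of peroxisomal beta oxidation and biogenesis genes, which includes the ACOX oxidases and the PEX import proteins, had 0 of 21 represented members called in any comparison. At an unadjusted limma p under 0.05 there were 1, 2, 2, 3 and 2 in the 4 comparisons, as ordered for ABCD3, and the test of the difference. The shares of all genes there were 14%, 7.34%, 14.3%, 7.39% and 7.41%. The median differences of the list were 0.12, -0.023, 0.16 and -0.038 in the 4 comparisons in the same order.

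Of the 5 mitochondrial and lysosomal members, 1 passed, only in parental xenografts against parental culture (20%, against 3.47% of all genes). ABCB6, a porphyrin transporter placed in mitochondria and in endolysosomal membranes, read 7.64, 7.53 and 7.73 in spheroid xenografts, 8.14, 8.05 and 7.66 in parental xenografts, 7.58, 7.50 and 7.27 in spheroid culture, and 7.44, 6.86 and 6.91 in parental culture. The parental xenografts lay above all 3 parental cultures, and the means of both spheroid groups lay between those of the parental ones. Means were 7.63 ± 0.10, 7.95 ± 0.25, 7.45 ± 0.16 and 7.07 ± 0.32 in the same order (SD, n = 3 each). ABCB6 rose by 0.88 in parental xenografts relative to parental culture (SE 0.19, 1.84-fold, adjusted p = 0.0262). It differed by 0.38 between the cultures (adjusted p = 0.406), by -0.31 between the xenografts (adjusted p = 0.899) and by 0.18 in spheroid xenografts against culture (adjusted p = 0.907), and the test of the difference gave -0.69 (SE 0.26, adjusted p = 0.505).

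The rise of ABCB6 was lost without parental xenograft replicate 1 (adjusted p = 0.0939), parental xenograft replicate 2 (adjusted p = 0.104) or parental culture replicate 3 (adjusted p = 0.102), with the difference between 0.77 and 1.06 whichever array was left out. Its second probe set, with a mean of 5.25, differed by -0.058 (SE 0.19) in the same comparison, so that the call rests on 1 of 2 probe sets.

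**Figure D3:**
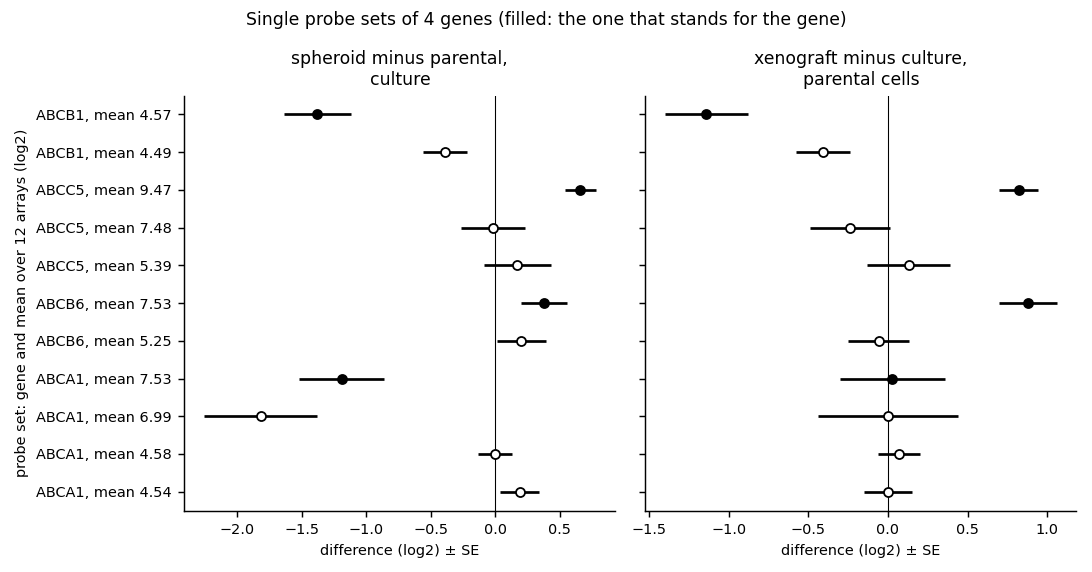
Differences of every single-symbol probe set of ABCB1, ABCC5, ABCB6 and ABCA1 in spheroid against parental culture and in parental xenografts against parental culture, on the log2 scale with ± SE of the fit, each row labelled by its mean over 12 arrays. The probe set that stands for the gene is filled: for ABCC5 it lies at 0.66 and 0.82, and the other rows of that gene lie between -0.24 and 0.17.

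ABCD4, which moves cobalamin out of lysosomes, read 7.51, 7.44 and 7.35 in parental xenografts, against 7.64, 8.79 and 8.04 in parental culture, a difference of -0.72 without overlap (SE 0.28, adjusted p = 0.23). Spheroid xenografts, at 7.72, 7.83 and 8.22, lay above the parental xenografts by 0.49 (SE 0.28, adjusted p = 0.862). ABCB10, which serves haem synthesis in the inner mitochondrial membrane, differed by -0.60 between the cultures (SE 0.31, adjusted p = 0.439) and by -0.73 between the xenografts (SE 0.31, adjusted p = 0.6). Parental culture replicate 2 read 8.69, against 7.61 and 7.46 in the other parental cultures, and leaving out 1 array moved the ABCB10 difference in culture between -0.83 and -0.22, with -0.22 reached without that replicate. ABCB10 read 7.02, 7.32 and 7.77 in spheroid xenografts, against 8.45, 7.75 and 8.11 in parental xenografts, and those groups overlapped by a narrow margin. ABCB8, linked to mitochondrial iron, and ABCB9, a lysosomal peptide transporter, had differences between -0.12 and 0.16.

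The mixed remainder held the bile salt exporter ABCB11 and the potassium channel subunits ABCC8 and ABCC9, and none passed. ABCB11 had the largest difference of them, with values of 5.25, 5.31 and 5.25 in spheroid xenografts, 5.22, 5.28 and 5.07 in parental xenografts, 5.53, 5.74 and 5.19 in spheroid culture, and 5.16, 5.22 and 5.40 in parental culture. The groups overlapped. Spheroid culture averaged 5.49 ± 0.27 and parental culture 5.26 ± 0.13 (SD, n = 3 each), a difference of 0.23 (SE 0.15, adjusted p = 0.594). Of the 2 ABCB11 probe sets, only 1, the one used, had a positive difference there. ABCC8 and ABCC9 had differences between -0.067 and 0.16.

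All 5 calls were lost in fits to only the 6 arrays compared, as were most calls over all genes: 15 genes (0.0759%) passed in spheroid against parental culture and 69 (0.349%) in parental xenografts against culture, where 487 and 687 had passed with all 12 arrays. The adjusted p there was 0.153 for ABCB1 and 0.162 for ABCC5 in spheroid against parental culture, and 0.229 for ABCB1, 0.0916 for ABCC5 and 0.191 for ABCB6 in parental xenografts against culture. With 3 arrays against 3, an exact permutation test of a single gene cannot go below p = 0.1.

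**Figure D4:**
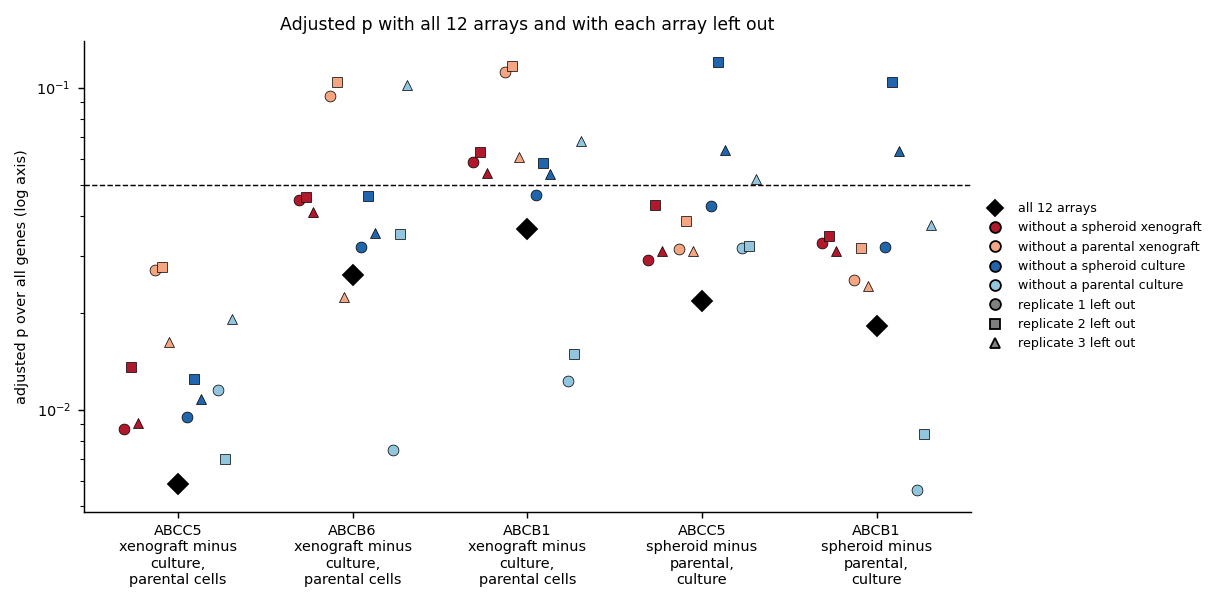
Adjusted p over all genes (log axis) of the 5 calls with all 12 arrays (diamonds) and with each array left out in turn, coloured by the group and shaped by the replicate left out. The dashed line is the threshold of 0.05: every point of ABCC5 in parental xenografts against culture lies under it, and 9 of 12 points of ABCB1 in the same comparison lie above it.

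Genes that work beside the transporters were counted in lists. Over all genes, 14%, 7.34%, 14.3% and 7.39% had an unadjusted limma p under 0.05 in spheroid against parental culture, between the xenografts, in parental xenografts against culture and in spheroid xenografts against culture. The 6 other ABC proteins, the antigen peptide transporters TAP1 and TAP2 and the soluble ABCE1, ABCF1, ABCF2 and ABCF3, had 0 called, with 1, 1, 2 and 3 at an unadjusted limma p under 0.05 in the 4 comparisons in that order. Their median was 0.35 in parental xenografts against culture and 0.33 in spheroid xenografts against culture. Of 12 regulators of efflux pump genes, such as NFE2L2 and AHR, 10 were represented and 0 were called, with 3, 2, 2 and 1 at an unadjusted p under 0.05. Of 18 genes listed for sterol sensing and cholesterol efflux, among them the acetyl-CoA acetyltransferase ACAT1, 17 were represented. In each of the comparisons with parental culture 1 was called (5.88%, against 2.46% and 3.47% of all genes). SREBF1, the regulator of lipid synthesis, fell by 1.28 in spheroid culture relative to parental culture (SE 0.20, adjusted p = 0.00767), and PLTP, the phospholipid transfer protein, rose by 2.05 in parental xenografts relative to culture (SE 0.29, adjusted p = 0.00302).

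Of 20 solute carriers that move drugs and conjugates, 18 were represented and 2 were called, 1 of them in spheroid against parental culture (5.56%, against 2.46% of all genes) and both in parental xenografts against culture (11.1%, against 3.47%). SLC47A1, which extrudes organic cations, fell by 1.30 in spheroid culture (SE 0.25, adjusted p = 0.0205) and by 1.80 in parental xenografts (SE 0.25, adjusted p = 0.00301), both relative to parental culture. SLC29A1, the equilibrative nucleoside carrier, rose by 0.81 in parental xenografts relative to culture (SE 0.18, adjusted p = 0.0285). Of 20 genes listed for glutathione metabolism and for conjugation, which supplies substrates of the ABCC pumps, 19 were represented and 3 were called. The list includes GGT1, UGT1A6 and UGT2B7. In spheroid against parental culture 1 was called (5.26%, against 2.46% of all genes). Between the xenografts 1 was called (5.26%, against 0.233%), and in parental xenografts against culture 2 were (10.5%, against 3.47%). MGST3, a microsomal glutathione transferase, rose by 0.81 in spheroid culture (SE 0.17, adjusted p = 0.0278) and by 0.85 in parental xenografts (SE 0.17, adjusted p = 0.0187), both relative to parental culture. GSTA4 fell by 0.88 in parental xenografts relative to culture (SE 0.18, adjusted p = 0.0234), and MGST1 fell by 3.04 in spheroid relative to parental xenografts (SE 0.48, adjusted p = 0.0315).

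The tumours could hold host cells, which these human probe sets read only where sequences match. In parental xenografts against parental culture, ABCB1 fell and ABCC5 and ABCB6 rose. There the fibroblast markers COL3A1 and FAP rose by 2.06 (SE 0.37, adjusted p = 0.0126) and 2.20 (SE 0.22, adjusted p = 0.00085). These were 2 of 9 markers on that list (22.2%, against 3.47% of all genes). FAP also fell by 1.35 in spheroid relative to parental xenografts (SE 0.22, adjusted p = 0.0365), 1 of the 9 markers (11.1%, against 0.233% of all genes). The spheroid effect of FAP differed between xenograft and culture by -1.94 (SE 0.32, adjusted p = 0.0416), again 1 of the 9 (11.1%, against 0.137%). The log2 of the summed signal of the 9 fibroblast markers ran between 9.88 and 10.43 in parental xenografts, against 9.34 to 9.79 in parental culture. It ran between 9.89 and 9.93 in spheroid xenografts, against 9.73 to 9.89 in spheroid culture. None of the 7 endothelial, 7 myeloid, 4 skeletal muscle or 4 adipocyte markers was called in any comparison, and their summed signals overlapped between parental xenografts and parental culture. Among the 6 markers of the tumour cells, VIM ran between 13.55 and 14.70 and KRT18 between 10.28 and 13.01 on the 12 arrays, while EPCAM, at 3.98 to 4.4, and CDH1, at 4.3 to 4.7, lay below the lower quartile of all values on every array. KRT8, a keratin of simple epithelia, fell by 1.43 in spheroid culture (SE 0.24, adjusted p = 0.0109) and fell by 1.77 in parental xenografts (SE 0.24, adjusted p = 0.00278), both relative to parental culture, as ABCB1 did. KRT18 fell by 1.71 in parental xenografts relative to parental culture (SE 0.34, adjusted p = 0.0191). Thus 2 of the 6 tumour cell markers were called lower there (33.3%, against 3.47% of all genes), and 1 in spheroid culture (16.7%, against 2.46%). In parental xenografts against culture, 4 of the 6 had a negative difference and 2 a positive one, of at most 0.52. The log2 of the summed signal of the 6 ran between 14.74 and 14.86 in parental xenografts. In parental culture it ran between 13.96 and 14.94, so the groups overlapped. The part of these genes, and of the array spread given above, in the differences of the transporters was not tested.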

How the data were processed

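The authors deposited a log2 value for every probe set on every array. The submitters' processing notes name RMA and affy as tools, and the sources used here give neither their versions nor whether RMA was run on the 12 arrays at once. The platform annotation gives 1 symbol to 41091 of 54675 probe sets, several to 1801 and none to 11721, and 62 are controls. Only probe sets with 1 symbol were used, and for 41037 of them the gene number was found in a RefSeq gene table (GRCh38.p14).

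With R 4.3.3 and limma 3.58.1, 1 mean per group was fitted to all 12 arrays (8 residual degrees of freedom, 19775 genes, no filter), moderated with eBayes and tested two-sided, with Benjamini-Hochberg adjustment over all genes. The median SE was 0.201, and 0.285 for the test of the difference between differences, the interaction. Precision is limited by the number of arrays. The method was checked only on simulated data with independent noise and, for each gene, the same spread in every group. The arrays here have correlated deviations and unequal spread between groups, which that check does not cover.

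The members and lists were chosen with earlier results of these data known. Full values are given for members called in any comparison and for the member with the largest difference of each role group, the others by range and count, with at most 3 called genes named per list. Members that did not overlap between groups, and ABCC4, ABCG2, ABCB10, ABCD3 and the neighbours on chromosomes 7 and 17, were named after their values were seen. Deviations of same-numbered arrays correlated over 0.1 in every pair between the xenografts (0.182 to 0.482) and between spheroid xenografts and culture (0.333 to 0.431). That was not so in the other comparisons (-0.298 to 0.333 and -0.454 to 0.192). Arrays of unlike number also correlated, by 0.255 between parental xenograft replicate 2 and spheroid xenograft replicate 1. Parental culture replicate 2 correlated by 0.508 with spheroid culture replicate 3 and by 0.584 with parental xenograft replicate 3. Both values lie above every same-number value given here, while other arrays of unlike number correlated negatively. The labels do not say whether the numbers pair the samples, and the correlations do not settle it. Alternatives covered normalisation, probe set choice, a dim filter, array weights, array spread as a covariate, the arrays fitted, a replicate block and leaving out each array.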

Additional observations from a re-analysis of the deposited data

How the results depend on the processing

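The counts of members called were 2 in spheroid against parental culture, 3 in parental xenografts against culture, and 0 between the xenografts, in spheroid xenografts against culture and in the interaction. In spheroid against parental culture 1 was called with cyclic loess, with probe sets averaged per gene, without probe sets of shared sequence or without dim ones, 4 with array spread as a covariate (8.85% of all genes), 5 with array weights (10.6%), and 0 to 3 when 1 array was left out (0.389% to 4.31%), where the 12 arrays together called 2.46% of all genes. In parental xenografts against culture 1 was called with probe sets averaged per gene, 5 with array spread as a covariate (9.61% of all genes), 5 with array weights (11.8%), and 1 to 3 when 1 array was left out (1.25% to 8.05%), against 3.47%. With only the compared arrays, alone or with a replicate block, 0 were called in both, with 0.0759% and 0.349% of all genes called alone and 0.111% and 0.344% with the block. Array weights called 1 between the xenografts, 1 in spheroid xenografts against culture and 3 in the interaction, with 6.1%, 4.63% and 4.53% of all genes. A replicate block over all 12 arrays left 2 and 3 calls. In the comparisons where same-numbered arrays correlated over 0.1 in every pair, the blocked fit with only the compared arrays was also read. It called 491 of all genes between the xenografts and 591 in spheroid xenografts against culture, and 0 members in either. Without probe sets of shared sequence ABCC5 gave -0.017 (adjusted p = 0.986) in spheroid against parental culture and -0.24 (adjusted p = 0.86) in parental xenografts against culture, since another probe set then stands for it. ABCB1 and ABCD2 have no value without dim probe sets. The cause of the other changes was not tested.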
